A study of Mus musculus with 15 samples.

Results

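The enzymes that make nucleotides, supply them with one-carbon units, and build polyamines were followed in cultured mouse mammary epithelial cells with combinations of p53 loss, Rb loss and MYC overexpression. The members were 39 genes named by pathway, and 34 of them had a probe set annotated with that gene symbol alone, of 19938 genes measured in all. Where a gene had several probe sets, the one with the largest average intensity across the 15 arrays stood for it, so the choice of probe sets used no difference between groups. Impdh2, Mat2a, Ahcy, Sms and Amd1 were not analysed here. The 15 arrays (Affymetrix Mouse Gene) fell into 5 groups of 3. Cells of the group p53- Rb- Myc+ carried deletions of p53 and Rb and received MYC by retrovirus, those of p53- Myc+ carried the p53 deletion and the MYC retrovirus, those of p53- Rb- carried both deletions, and those of p53- carried the p53 deletion. WT cells had wild-type p53, Rb and MYC labels. All cells came from female mice 8 weeks of age and were grown in a medium with epidermal growth factor, insulin, cholera toxin and hydrocortisone. Both genes were deleted with Cre recombinase carried by an adenovirus, and RNA was taken while the cultures were proliferating. The labels do not say whether cultures without a deletion or without MYC received a control virus, so effects of the viruses cannot be told apart from those of the genes they changed. They also do not say whether the arrays of a group came from separate mice or cultures, and the p-values below therefore reflect only how far these arrays varied, which may be technical in part.

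Cells build pyrimidines on aspartate and carbamoyl phosphate and join the finished ring to phosphoribosyl pyrophosphate (PRPP), whereas purines are assembled atom by atom on PRPP until inosine monophosphate (IMP) is formed, from which AMP and GMP branch. Purines and thymidylate need formyl and methylene groups carried on folate, most of which come from serine through paired cytosolic and mitochondrial enzymes. Polyamines are made from ornithine and decarboxylated methionine products, and are lost by acetylation and oxidation. In proliferating cells these routes feed RNA and DNA synthesis, and many of their genes are known as targets of the MYC transcription factor.

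Intensities are linear and in arbitrary units, and those of members are compared within a probe set and not between genes. Sums of marker intensities add different probe sets, so the brightest weigh most in them. Changes are log2 fold changes of the intensity plus 16, given with their standard error, and genes whose limma p, adjusted by Benjamini-Hochberg across 19938 genes, was under 0.05 are said to have passed. Constant addition makes the change of dim genes look smaller. Array medians ran between 41.3 and 54.9, arrays of a group correlated at r between 0.963 and 0.989 across genes, and those that differed in the Myc+ label correlated at 0.775 and 0.865. Within its group, p53- Rb- array 3 lay farthest from the other arrays in 24 of the 34 members, and p53- array 2 did so in 18. Rb1, which encodes Rb, read 20.0, 18.3 and 17.9 in p53- Rb- Myc+ arrays, 48.0, 26.8 and 34.4 in p53- Myc+ arrays, 52.7, 55.3 and 64.2 in p53- Rb- arrays, and 147, 181 and 157 in p53- arrays. Rb1 was thus lower with each Rb- label, but also lower in the arrays labelled p53- Myc+, whose label leaves Rb intact, than in the arrays labelled p53- Rb-. The probe set of mouse Myc averaged 96.3 ± 10.8 in p53- Rb- Myc+ and 128 ± 29.5 in p53- Myc+ arrays, against 856 ± 107 in p53- Rb- and 929.8 ± 105 in p53- arrays (SD, n = 3 each), so it did not show the label Myc+. Which transcript regions these probes cover, and whether they read the retroviral MYC, is not given in the sources used here, and group names below are those of the labels. The 9 luminal epithelial markers summed to 609 to 704 in p53- Rb- Myc+ and 168 to 228 in p53- Myc+ arrays, against 17869 to 20053 in the 9 arrays without the Myc+ label. Krt19 made up most of the sum in p53- Rb- Myc+ arrays, where it averaged 489 ± 26.4, against 1248 ± 108 in p53- Rb- arrays (SD, n = 3 each), and the other 8 averaged at most 50.3 in either group labelled Myc+. Apart from Krt19 in p53- Rb- Myc+ arrays, luminal keratins and adhesion genes thus did not bear out the label mammary epithelial cells in the arrays labelled Myc+, and 0 of 55 markers of any type were listed at exactly 0. In these bulk cultures, fewer cells of a type and less RNA per cell cannot be told apart.

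The clearest pattern among the members followed the Myc+ label. In p53- Myc+ against p53- arrays, 24 of 34 members rose, 2 fell and 8 did not pass, where 13.1% of all genes rose and 20.2% fell. Their median change was 0.90, against -0.09 for all genes. In p53- Rb- Myc+ against p53- Rb- arrays, which share no array with that comparison, 20 members rose, 1 fell and 13 did not pass, where 17.6% of all genes rose and 18.7% fell, with medians of 0.62 for members and 0.12 for all genes. Both comparisons raised 19 members, 19 of the 24 raised in the p53- background and 19 of the 20 raised in the p53- Rb- background, and both lowered Sat1. In 21 members every one of the 6 arrays labelled Myc+ lay above all 9 arrays without the label, and in 1, Sat1, they lay below. The share of all genes that separate in this way was not computed, so these counts have no background beside them. Between p53- Myc+ and p53- arrays 27 members had non-overlapping arrays upward and 2 downward (42.6% of all genes did not overlap), and between p53- Rb- Myc+ and p53- Rb- arrays 23 and 1 did (51.2% of all genes). The members' changes in both comparisons correlated at r = 0.909 across 34 genes, or 0.829 across 33 without Sat1, as a description of genes that are not independent. Centring each array on its median left a median change of all genes of 0.11 in the p53- background and 28 members higher, and quantile normalization left 0.11 and 26. Of all passing genes in that comparison 39.2% rose as deposited, but 59.2% after centring and 56.2% after quantile normalization.

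**Figure D1:**
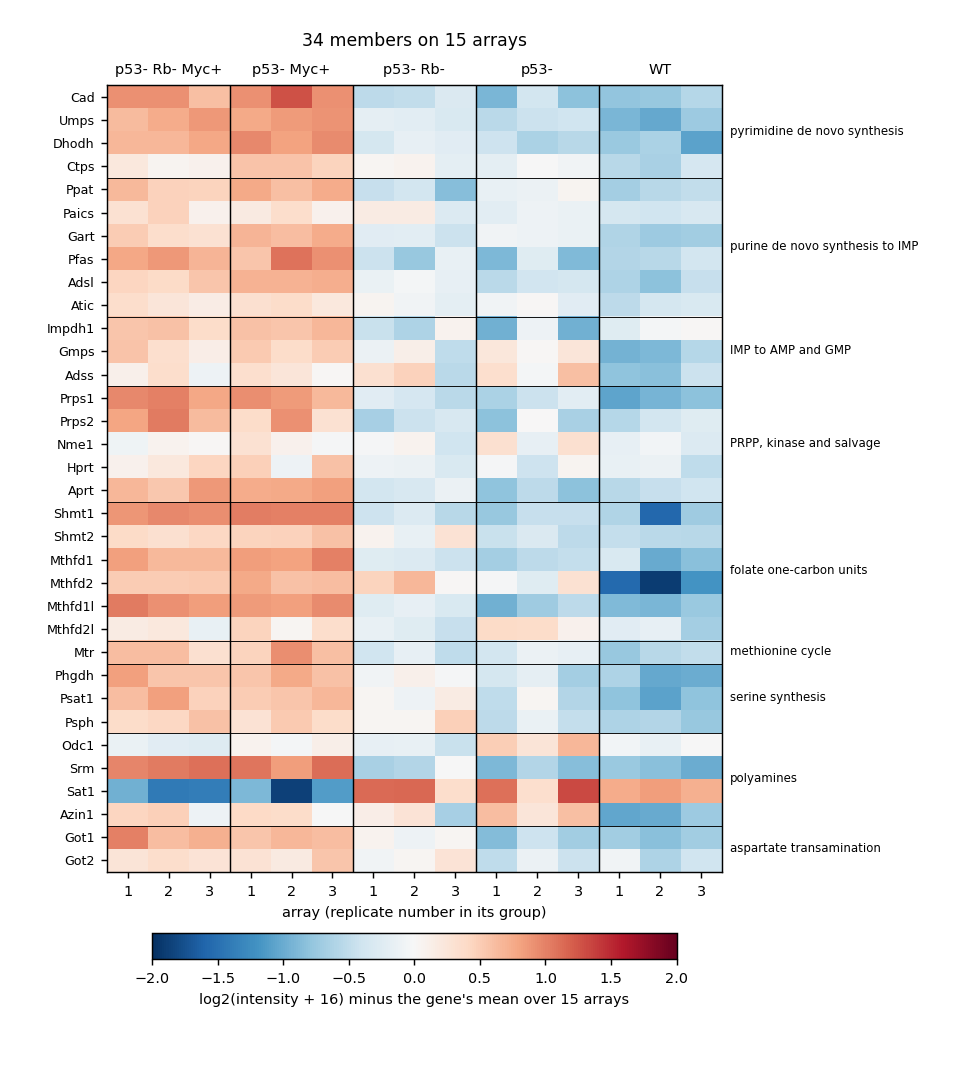
Level of each of the 34 members (rows, ordered by pathway) on each of the 15 arrays (columns), as log2 of intensity plus 16 minus the gene's mean over all arrays, from blue (lower) to red (higher). The 6 arrays labelled Myc+ on the left are red in most rows, Sat1 is blue there, and Mthfd2, Gmps, Adss and Azin1 are blue mainly in WT.

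**Figure D2:**
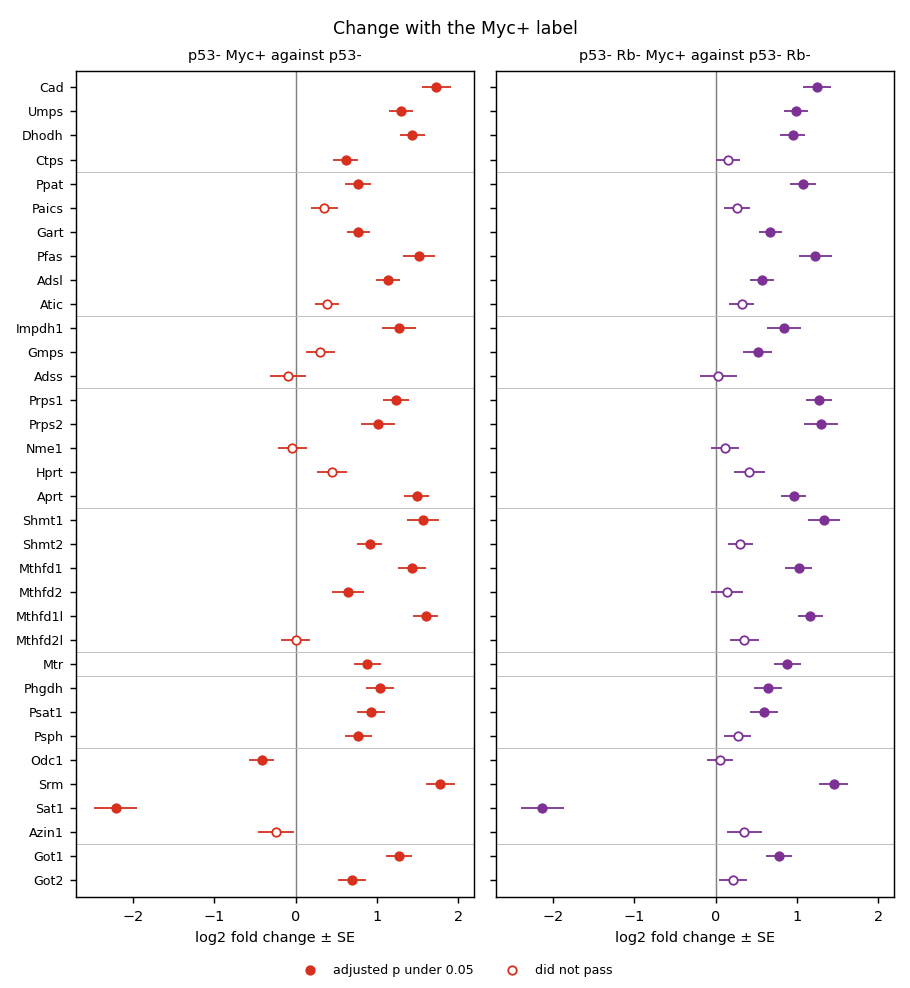
Log2 fold change of each member in p53- Myc+ against p53- arrays (left) and in p53- Rb- Myc+ against p53- Rb- arrays (right), with bars of 1 standard error. Filled points passed at an adjusted p under 0.05, 24 higher and 2 lower on the left, 20 higher and 1 lower on the right.

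All 4 genes of pyrimidine synthesis rose in p53- Myc+ against p53- arrays, and 3 of 4 rose in p53- Rb- Myc+ against p53- Rb- arrays. Cad encodes the large enzyme that opens the pathway. Cad read 661, 657 and 527 in p53- Rb- Myc+ arrays, 661, 847 and 656 in p53- Myc+ arrays, 233, 238 and 277 in p53- Rb- arrays, 175, 260.4 and 187 in p53- arrays, and 191, 195 and 226 in WT arrays. The 6 arrays labelled Myc+ lay above the rest with no overlap, and the change was 1.73 ± 0.17 in the p53- background (adjusted p = 3.26e-08) and 1.25 ± 0.17 in the p53- Rb- background (adjusted p = 4.61e-06). Umps, whose product attaches the ring to PRPP and yields UMP, read 713, 769 and 840.0 in p53- Rb- Myc+ arrays, 776, 834 and 858 in p53- Myc+ arrays, 396, 391 and 363 in p53- Rb- arrays, 306, 330.5 and 339 in p53- arrays, and 232, 215 and 267 in WT arrays. Umps showed the same separation, with changes of 1.30 ± 0.15 and 0.98 ± 0.15 (adjusted p = 2.3e-07 and 1.23e-05). Dhodh, the mitochondrial step between them, averaged 161 ± 8.30 in p53- Rb- Myc+, 188 ± 12.3 in p53- Myc+, 75.8 ± 5.99 in p53- Rb-, 59.6 ± 5.74 in p53- and 46.7 ± 9.44 in WT arrays (SD, n = 3 each). Dhodh rose by 1.43 and 0.95 (adjusted p = 9.84e-08 and 3.28e-05). Ctps, which converts UTP to CTP at the end of the route, averaged 423 ± 24.4 in p53- Rb- Myc+, 564 ± 28.2 in p53- Myc+, 379.6 ± 38.7 in p53- Rb-, 363 ± 24.0 in p53- and 267 ± 31.9 in WT arrays. Ctps rose in the p53- background (0.61 ± 0.15, adjusted p = 0.00259) but was at 0.15 ± 0.15 in the p53- Rb- background, where it did not pass (adjusted p = 0.459).

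Of the 6 genes for the steps from PRPP to IMP, Ppat, Gart, Pfas and Adsl rose with the Myc+ label in both backgrounds, while Paics and Atic passed in neither. Pfas, which adds an amide nitrogen to the growing ring, had the smallest p of the group. It read 491, 527 and 459 in p53- Rb- Myc+ arrays, 418, 611 and 539 in p53- Myc+ arrays, 203, 158 and 249.9 in p53- Rb- arrays, 142, 235 and 144 in p53- arrays, and 182, 185 and 214 in WT arrays. All arrays labelled Myc+ were above all others, and Pfas changed by 1.52 ± 0.20 in the p53- background (adjusted p = 1.59e-06) and by 1.23 ± 0.20 in the p53- Rb- background (adjusted p = 2.88e-05). Gart encodes an enzyme with several activities of the pathway. It read 549, 489 and 472 in p53- Rb- Myc+ arrays, 617, 593 and 644 in p53- Myc+ arrays, 324, 326 and 278 in p53- Rb- arrays, 361, 356 and 347 in p53- arrays, and 245, 223 and 229 in WT arrays. Gart arrays labelled Myc+ again stood apart, at 0.77 ± 0.14 and 0.67 ± 0.14 (adjusted p = 0.000178 and 0.000719). Adsl, which acts both in ring assembly and in the branch to AMP, averaged 443 ± 28.8 in p53- Rb- Myc+, 529 ± 5.71 in p53- Myc+, 293 ± 14.4 in p53- Rb-, 233 ± 16.7 in p53- and 200.2 ± 27.1 in WT arrays (SD, n = 3 each), and rose by 1.13 and 0.57 (adjusted p = 1.84e-06 and 0.00409).

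Ppat and Paics are neighbours on opposite strands of chromosome 5. Changes of both were positive in both Myc+ comparisons, and only those of Ppat passed. The difference between the 2 genes was not tested. Ppat makes the enzyme of the committed step, and Paics an enzyme of later ring closure. Ppat read 913, 801 and 790.5 in p53- Rb- Myc+ arrays, 990.2, 886 and 978 in p53- Myc+ arrays, 415, 446 and 314 in p53- Rb- arrays, 520.1, 533 and 601 in p53- arrays, and 357, 388 and 405 in WT arrays. Its arrays labelled Myc+ lay above all others, at 0.77 ± 0.16 and 1.07 ± 0.16 (adjusted p = 0.000486 and 9.63e-06). Paics read 1602, 1787 and 1379.6 in p53- Rb- Myc+ arrays, 1476, 1655 and 1381 in p53- Myc+ arrays, 1459, 1451 and 1070.2 in p53- Rb- arrays, 1120.1, 1209 and 1183 in p53- arrays, and 1017, 982 and 1042 in WT arrays. Its p53- Rb- Myc+ and p53- Rb- arrays overlapped, its p53- Myc+ arrays lay above those of p53-, and neither change passed (0.35 ± 0.16, adjusted p = 0.1, and 0.26 ± 0.16, adjusted p = 0.213). Paics passed in 4 of 26 alternative settings in the p53- background, with adjusted p of 0.00686 after centring, 0.0375 after quantile normalization, 0.0312 with 64 added and 0.0383 by limma-trend, and in 1 in the p53- Rb- background, quantile normalization (0.0452). Atic, the enzyme of the closing steps to IMP, averaged 1381 ± 104 in p53- Rb- Myc+, 1428 ± 74.4 in p53- Myc+, 1105 ± 98.9 in p53- Rb-, 1091 ± 96.0 in p53- and 881 ± 68.4 in WT arrays (SD, n = 3 each), and was at 0.39 ± 0.15 and 0.32 ± 0.15 (adjusted p = 0.0516 and 0.102). The 6 Atic arrays labelled Myc+ did lie above the other 9, and Atic passed in 11 of 26 alternative settings in the p53- background. These included quantile normalization (0.0152) and leaving out WT array 3 (0.0472), p53- Rb- array 3 (0.049) or p53- array 2 (0.0421). In the p53- Rb- background Atic passed in 5, among them quantile normalization (0.0102).

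The promoter windows of Cad, Ppat, Paics, Atic and Nme1 are shown because CACGTG, the E-box that MYC and its partner MAX are known to bind, is present in some and not in others. They come from RefSeq (GRCm38.p6) and run from 250 bases before to 50 bases after the annotated start, in the direction of the gene, with each CACGTG in capitals.
Cad (chr5:31054530-31054829, plus strand): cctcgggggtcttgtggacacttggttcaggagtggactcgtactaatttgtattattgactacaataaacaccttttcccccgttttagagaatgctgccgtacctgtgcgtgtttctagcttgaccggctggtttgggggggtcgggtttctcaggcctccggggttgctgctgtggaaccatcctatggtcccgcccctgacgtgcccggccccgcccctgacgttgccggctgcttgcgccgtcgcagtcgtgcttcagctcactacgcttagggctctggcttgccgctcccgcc
Ppat (chr5:76951529-76951828, minus strand): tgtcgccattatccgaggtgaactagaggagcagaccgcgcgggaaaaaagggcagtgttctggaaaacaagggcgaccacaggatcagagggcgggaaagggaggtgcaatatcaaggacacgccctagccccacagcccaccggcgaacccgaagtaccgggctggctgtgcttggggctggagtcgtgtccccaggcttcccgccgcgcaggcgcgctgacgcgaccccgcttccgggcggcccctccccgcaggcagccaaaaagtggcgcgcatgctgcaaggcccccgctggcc
Paics (chr5:76951052-76951351, plus strand): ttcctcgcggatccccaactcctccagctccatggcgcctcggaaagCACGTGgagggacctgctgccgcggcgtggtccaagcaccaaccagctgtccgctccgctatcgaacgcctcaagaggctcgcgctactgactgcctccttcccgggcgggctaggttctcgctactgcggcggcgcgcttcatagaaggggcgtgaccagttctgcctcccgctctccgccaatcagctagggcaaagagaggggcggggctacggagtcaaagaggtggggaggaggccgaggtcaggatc
Atic (chr1:71556906-71557205, plus strand): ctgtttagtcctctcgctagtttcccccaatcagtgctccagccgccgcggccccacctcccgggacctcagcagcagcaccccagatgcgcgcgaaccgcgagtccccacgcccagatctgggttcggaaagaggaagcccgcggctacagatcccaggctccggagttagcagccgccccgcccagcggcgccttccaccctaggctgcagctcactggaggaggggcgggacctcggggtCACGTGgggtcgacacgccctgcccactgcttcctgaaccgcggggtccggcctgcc
Nme1 (chr11:93968223-93968522, minus strand): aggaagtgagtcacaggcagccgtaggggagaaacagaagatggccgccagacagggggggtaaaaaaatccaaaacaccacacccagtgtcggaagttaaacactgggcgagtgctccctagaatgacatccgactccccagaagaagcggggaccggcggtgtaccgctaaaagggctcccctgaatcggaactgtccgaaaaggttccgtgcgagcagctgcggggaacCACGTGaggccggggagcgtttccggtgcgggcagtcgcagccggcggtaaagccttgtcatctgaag
The starts of Ppat (76951578, minus strand) and Paics (76951302, plus strand) lie 276 bases apart, and the annotated 5′ ends overlap. The Paics window holds a CACGTG whose first base is at -203 from the start base counted as 0, and the Atic and Nme1 windows shown hold theirs at -7 and -18. CACGTG reads the same on both strands, and it occurred in 2349 of 32851 windows of this length (7.15%). Of 34 measured members, 30 had a window (34 windows in all), and 4 windows of 3 members, Paics, Atic and Nme1, held it. Dhodh, Pfas, Srm and Azin1 had no window, and bases outside the windows were not searched. In the fit described here these 3 passed in neither Myc+ comparison, but Paics and Atic passed in both after quantile normalization, so which members with CACGTG passed depended on the setting. A match describes letters only and is no measured binding site.

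Past IMP, Impdh1 rose with the Myc+ label in both backgrounds, Gmps rose in the p53- Rb- background alone and Adss passed in neither. Impdh1, which turns IMP toward GMP and has a paralog, Impdh2, that was not analysed here, read 169, 171 and 146 in p53- Rb- Myc+ arrays, 172, 168 and 183 in p53- Myc+ arrays, 76.3, 65.5 and 115 in p53- Rb- arrays, 48.2, 101 and 48.8 in p53- arrays, and 89.6, 106 and 111 in WT arrays. Its p53- arrays 1 and 3 were low and array 2 lay among the WT arrays, while all arrays labelled Myc+ were above the rest. Impdh1 changed by 1.27 ± 0.21 in the p53- background (adjusted p = 3.8e-05) and by 0.84 ± 0.21 in the p53- Rb- background (adjusted p = 0.00293). Gmps, which completes GMP, read 909, 767 and 665 in p53- Rb- Myc+ arrays, 873, 787 and 867 in p53- Myc+ arrays, 557, 657 and 419.9 in p53- Rb- arrays, 708, 615 and 719.6 in p53- arrays, and 306, 316 and 403 in WT arrays. Its p53- Rb- Myc+ arrays lay just above those of p53- Rb- (lowest 665 against highest 657), and all WT arrays lay below every other array. Gmps rose in the p53- Rb- background (0.52 ± 0.18, adjusted p = 0.0263), and was at 0.30 ± 0.18 in the p53- background (adjusted p = 0.216). Leaving out p53- Rb- array 1 or 3, or p53- Rb- Myc+ array 1 or 2, ended that call (adjusted p = 0.0517, 0.166, 0.134 and 0.0606). Adss, the opening enzyme of the AMP branch, averaged 532 ± 85.1 in p53- Rb- Myc+, 562 ± 62.6 in p53- Myc+, 538 ± 182 in p53- Rb-, 609.9 ± 136 in p53- and 297 ± 49.9 in WT arrays (SD, n = 3 each), with changes of -0.10 and 0.03 that did not pass (adjusted p = 0.786 and 0.923).

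Both PRPP synthetases and the adenine salvage enzyme rose with the Myc+ label in both backgrounds, while hypoxanthine salvage and the nucleoside diphosphate kinase did not pass. Aprt, which returns adenine to AMP, read 1847, 1693 and 2131 in p53- Rb- Myc+ arrays, 1961, 1976 and 2063 in p53- Myc+ arrays, 898, 923 and 1069 in p53- Rb- arrays, 656, 807 and 649.6 in p53- arrays, and 782, 839 and 874 in WT arrays. The arrays labelled Myc+ were above all others, and Aprt changed by 1.49 ± 0.15 (adjusted p = 5.15e-08) and 0.96 ± 0.15 (adjusted p = 2.89e-05). Prps1 read 536, 556 and 471 in p53- Rb- Myc+ arrays, 524, 499 and 428 in p53- Myc+ arrays, 228, 210.1 and 180.5 in p53- Rb- arrays, 168, 195 and 229 in p53- arrays, and 121, 133 and 145 in WT arrays. Its Myc+ arrays lay above and its WT arrays below all others, with changes of 1.23 ± 0.16 and 1.28 ± 0.16 (adjusted p = 1.73e-06 and 1.09e-06). Its paralog Prps2 read 463, 554 and 412 in p53- Rb- Myc+ arrays, 340.4, 506 and 325 in p53- Myc+ arrays, 158, 190.2 and 204 in p53- Rb- arrays, 141, 261 and 160.3 in p53- arrays, and 171, 199 and 217 in WT arrays. Prps2 also separated by the Myc+ label (1.02 ± 0.21 and 1.29 ± 0.21, adjusted p = 0.000453 and 2.79e-05), but its WT, p53- and p53- Rb- arrays overlapped. Hprt, which salvages hypoxanthine and guanine, averaged 526 ± 65.6 in p53- Rb- Myc+, 567 ± 136 in p53- Myc+, 391 ± 31.6 in p53- Rb-, 408 ± 71.9 in p53- and 370.2 ± 54.4 in WT arrays (SD, n = 3 each), and was at 0.45 ± 0.19 and 0.41 ± 0.19 (adjusted p = 0.0774 and 0.097). Nme1, a kinase that balances the triphosphates, averaged 977 ± 56.9 in p53- Rb- Myc+, 1067 ± 126 in p53- Myc+, 908 ± 152 in p53- Rb-, 1105 ± 204 in p53- and 869 ± 66.4 in WT arrays. Nme1 was near 0 in both, at -0.04 ± 0.17 (95% interval -0.40 to 0.32) and 0.12 ± 0.17 (-0.24 to 0.48).

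Of the 6 folate genes, 5 rose in the p53- background and 3 in the p53- Rb- background. Mthfd1l, which releases formate from mitochondria, had the smallest p of all members in p53- Myc+ against p53- arrays. It read 503, 461 and 432 in p53- Rb- Myc+ arrays, 441, 429 and 469.8 in p53- Myc+ arrays, 198, 209 and 189 in p53- Rb- arrays, 114, 139 and 161 in p53- arrays, and 122, 119 and 135 in WT arrays. The arrays labelled Myc+ all read higher than every other array, with changes of 1.60 ± 0.15 (adjusted p = 1.49e-08) and 1.17 ± 0.15 (adjusted p = 1.93e-06). Mthfd1, its cytosolic counterpart in the formate route, averaged 369 ± 27.9 in p53- Rb- Myc+, 419.9 ± 31.9 in p53- Myc+, 174 ± 12.4 in p53- Rb-, 145 ± 11.7 in p53- and 131 ± 39.0 in WT arrays (SD, n = 3 each), and rose by 1.44 and 1.02 (adjusted p = 4.87e-07 and 5.16e-05). The serine hydroxymethyltransferases take the carbon from serine, Shmt1 in the cytosol and Shmt2 in mitochondria. Shmt1 read 352, 371 and 364 in p53- Rb- Myc+ arrays, 389, 385 and 384 in p53- Myc+ arrays, 134, 149 and 120.3 in p53- Rb- arrays, 102, 128 and 129 in p53- arrays, and 115, 51.1 and 106 in WT arrays. WT array 2 was the lowest, and the arrays labelled Myc+ stood clear of all others (1.57 ± 0.20 and 1.33 ± 0.20, adjusted p = 1.01e-06 and 9.96e-06). Shmt2 read 1653, 1582 and 1686 in p53- Rb- Myc+ arrays, 1722, 1734 and 1892 in p53- Myc+ arrays, 1324, 1136 and 1546 in p53- Rb- arrays, 921, 1026 and 876 in p53- arrays, and 906, 862 and 857 in WT arrays. Its p53- Rb- arrays lay between, above all p53- and WT arrays and below all arrays labelled Myc+. Shmt2 rose by 0.91 ± 0.15 in the p53- background (adjusted p = 4.55e-05), and was at 0.30 ± 0.15 in the p53- Rb- background (adjusted p = 0.124).

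The mitochondrial dehydrogenase Mthfd2 and its paralog Mthfd2l differed from this pattern. Mthfd2 read 787, 784 and 797 in p53- Rb- Myc+ arrays, 937, 827 and 845 in p53- Myc+ arrays, 748, 875 and 557 in p53- Rb- arrays, 536, 458 and 678 in p53- arrays, and 175, 136 and 229 in WT arrays. WT arrays were lowest by a wide gap, and p53- Rb- array 2 reached the range of the arrays labelled Myc+. Mthfd2 rose by 0.64 ± 0.19 in the p53- background (adjusted p = 0.0124), and was at 0.14 ± 0.19 in the p53- Rb- background (adjusted p = 0.606). Without p53- array 2, the adjusted p in the p53- background was 0.0704. Mthfd2l read 127, 132 and 99.0 in p53- Rb- Myc+ arrays, 158, 116 and 148 in p53- Myc+ arrays, 99.7, 92.5 and 76.7 in p53- Rb- arrays, 151, 149 and 120.4 in p53- arrays, and 93.7, 98.6 and 63.9 in WT arrays. Its groups overlapped in both Myc+ comparisons, at 0.00 ± 0.18 and 0.35 ± 0.18 (adjusted p = 0.996 and 0.13).

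Mtr, the methionine synthase that draws on folate, and the serine genes rose with the Myc+ label, with Psph passing in the p53- background alone. Mtr read 138, 137 and 109 in p53- Rb- Myc+ arrays, 121, 175 and 136 in p53- Myc+ arrays, 59.6, 73.0 and 54.0 in p53- Rb- arrays, 61.9, 75.8 and 72.9 in p53- arrays, and 43.0, 52.1 and 55.3 in WT arrays. The arrays labelled Myc+ lay above all others, with changes of 0.88 ± 0.17 (adjusted p = 0.000226) and 0.88 ± 0.17 (adjusted p = 0.000212). Phgdh, the entry enzyme from glycolysis to serine, read 448, 366 and 369 in p53- Rb- Myc+ arrays, 369.9, 427 and 375 in p53- Myc+ arrays, 234, 263 and 241 in p53- Rb- arrays, 189, 215 and 146 in p53- arrays, and 155, 113 and 115 in WT arrays. Phgdh arrays labelled Myc+ were above the rest, at 1.04 ± 0.17 and 0.64 ± 0.17 (adjusted p = 3.45e-05 and 0.00448). Psat1, the transaminase that follows, read 1557, 1802 and 1393 in p53- Rb- Myc+ arrays, 1446, 1490.2 and 1619.9 in p53- Myc+ arrays, 1041, 947 and 1135 in p53- Rb- arrays, 705, 1039 and 672 in p53- arrays, and 574, 474 and 570.3 in WT arrays. Psat1 separated in the same way, and rose by 0.93 ± 0.17 (adjusted p = 0.000197) and 0.59 ± 0.17 (adjusted p = 0.0101), with the change in the p53- Rb- background at adjusted p = 0.0616 without p53- Rb- Myc+ array 2. Psph, the closing phosphatase, averaged 751 ± 61.4 in p53- Rb- Myc+, 718 ± 64.2 in p53- Myc+, 625 ± 119 in p53- Rb-, 417 ± 68.2 in p53- and 338 ± 21.7 in WT arrays (SD, n = 3 each), with changes of 0.77 ± 0.17 and 0.27 ± 0.17 (adjusted p = 0.000836 and 0.215).

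The 4 polyamine genes went in different directions with the Myc+ label. Srm, the spermidine synthase, rose more than any other member in both comparisons. It read 1949, 2042 and 2112 in p53- Rb- Myc+ arrays, 2066, 1754 and 2148 in p53- Myc+ arrays, 619.6, 646 and 980.0 in p53- Rb- arrays, 518, 650.4 and 536 in p53- arrays, and 581, 545 and 485 in WT arrays. No array overlapped across the Myc+ label, and Srm changed by 1.78 ± 0.18 (adjusted p = 2.62e-08) and 1.45 ± 0.18 (adjusted p = 6.19e-07). Sat1, the acetyltransferase that marks spermidine and spermine for breakdown or export, read 187, 132 and 136 in p53- Rb- Myc+ arrays, 196, 92.3 and 166 in p53- Myc+ arrays, 856, 861 and 489 in p53- Rb- arrays, 831, 483 and 977 in p53- arrays, and 646, 692 and 632 in WT arrays. All arrays labelled Myc+ lay below all others, among which p53- array 2 and p53- Rb- array 3 were lowest. Sat1 fell in both backgrounds (-2.22 ± 0.26, adjusted p = 3.81e-07, and -2.13 ± 0.26, adjusted p = 6.99e-07). Odc1, which makes putrescine and is widely known as a MYC target, read 1549, 1449 and 1419 in p53- Rb- Myc+ arrays, 1772, 1640.4 and 1845 in p53- Myc+ arrays, 1507, 1532 and 1236 in p53- Rb- arrays, 2376, 2017 and 2688 in p53- arrays, and 1628, 1528 and 1688 in WT arrays. Its p53- arrays were the highest of all, and its p53- Rb- arrays overlapped those of p53- Rb- Myc+. Odc1 fell in the p53- background (-0.42 ± 0.16, adjusted p = 0.0412), and was at 0.05 ± 0.16 in the p53- Rb- background (adjusted p = 0.822). That fall was lost in 11 of 26 alternatives. After centring it was -0.22 (adjusted p = 0.308) and after quantile normalization -0.3 (adjusted p = 0.144). The adjusted p was 0.0843 with only the arrays compared and 0.0502 with 1 added. It was 0.0972 and 0.193 without p53- array 1 or 3, and 0.0765, 0.114 and 0.0564 without p53- Myc+ array 1, 2 or 3. Without p53- Rb- array 1 it was 0.0538, and without p53- Rb- Myc+ array 1 it was 0.0509. The other Odc1 probe set ran the same way over the groups, with means of 773.97 in p53- Rb- Myc+, 1017 in p53- Myc+, 786 in p53- Rb-, 1367 in p53- and 934 in WT arrays. Azin1, which frees ornithine decarboxylase from its antizyme, read 384, 399 and 260.3 in p53- Rb- Myc+ arrays, 377, 366 and 279 in p53- Myc+ arrays, 311, 343 and 171 in p53- Rb- arrays, 438, 337 and 437 in p53- arrays, and 129, 131 and 164 in WT arrays. WT arrays were lowest and the other groups overlapped, with changes of -0.24 ± 0.22 and 0.35 ± 0.22 that did not pass (adjusted p = 0.454 and 0.222).

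The aspartate transaminases link aspartate, which both ring syntheses consume, to the tricarboxylic acid cycle. Got1, the cytosolic form, read 870.3, 658 and 699 in p53- Rb- Myc+ arrays, 629, 682 and 654 in p53- Myc+ arrays, 446, 392 and 435 in p53- Rb- arrays, 225, 314 and 256 in p53- arrays, and 254, 231 and 254 in WT arrays. Its arrays labelled Myc+ were above all others and its p53- Rb- arrays above those of p53- and WT. Got1 rose by 1.27 ± 0.16 (adjusted p = 1.1e-06) and 0.78 ± 0.16 (adjusted p = 0.000487). Got2, the mitochondrial form, averaged 859.6 ± 31.3 in p53- Rb- Myc+, 894 ± 124 in p53- Myc+, 742 ± 95.5 in p53- Rb-, 547 ± 83.1 in p53- and 546 ± 108 in WT arrays (SD, n = 3 each), and rose in the p53- background (0.70 ± 0.17, adjusted p = 0.00307), with 0.22 ± 0.17 in the p53- Rb- background (adjusted p = 0.354).

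**Figure D3:**
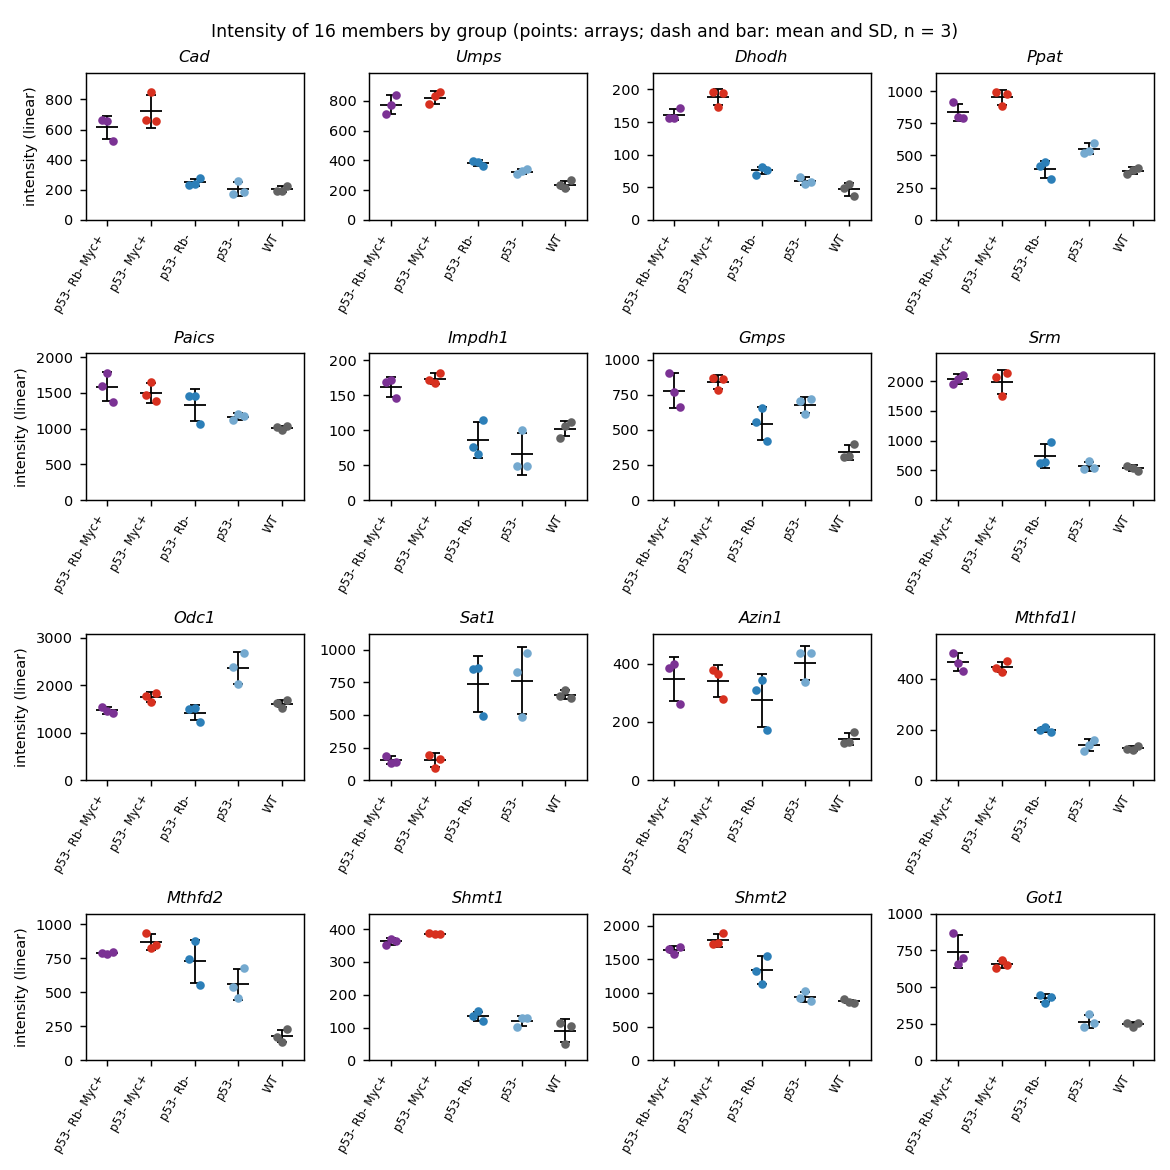
Linear intensity of 16 members in the 15 arrays, by group. Points are arrays and dashes with bars are the mean and SD of 3 arrays, on axes that start at 0. Cad, Srm and Mthfd1l separate cleanly by the Myc+ label, Sat1 does so downward, and Mthfd2, Gmps and Azin1 are lowest in WT.

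Other measured features moved with the Myc+ label. All 9 luminal epithelial markers fell in both Myc+ comparisons, 5 of 6 basal markers fell in the p53- background and 6 of 6 in the p53- Rb- background, and of 9 fibroblast markers 5 rose and 2 fell in the p53- background while 1 rose and 7 fell in the p53- Rb- background. Basal markers summed to 1721 to 1948 in p53- Rb- Myc+, 2159.5 to 2516 in p53- Myc+, 8905 to 9088 in p53- Rb- and 5794 to 7076 in p53- arrays, and fibroblast markers to 3119 to 4017 in p53- Rb- Myc+, 4453 to 5222 in p53- Myc+, 5794 to 7338 in p53- Rb- and 3209.6 to 3461 in p53- arrays. Acta2, which smooth muscle and fibroblasts also express, made up most of the basal sum in arrays labelled Myc+, with means of 1807 in p53- Rb- Myc+ and 2321 in p53- Myc+ arrays. Krt5, Krt14, Krt17 and Trp63 averaged between 3.06 and 21.7 in these groups, against 151 to 2154 in p53- Rb- and p53- arrays. Of 13 proliferation markers 8 rose in the p53- background and 7 in the p53- Rb- background, and 0 fell. Their summed intensity was 8893 to 9850 in p53- Rb- Myc+, 9227 to 9664 in p53- Myc+, 5995 to 7539 in p53- Rb- and 6699 to 7940 in p53- arrays. The part of these features in the members' changes was not tested.

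The comparison of p53- with WT arrays asked what changed with p53 loss. In it 13 of 34 members rose, 1 fell and 20 did not pass, where 19.3% of all genes rose and 9.72% fell, with medians of 0.29 for members and 0.12 for all genes. Arrays did not overlap in 17 members, all upward (40.3% of all genes). Mthfd2 and Azin1, whose arrays are given above, rose most, by 1.56 ± 0.19 (adjusted p = 6.83e-06) and 1.41 ± 0.22 (adjusted p = 8.1e-05). Adss rose by 0.99 ± 0.22 (adjusted p = 0.00236) and Gmps by 0.97 ± 0.18 (adjusted p = 0.000387), and so did Gart by 0.58 ± 0.14 (adjusted p = 0.00476). These 5 passed in all 26 alternatives. Mthfd2l (0.63), Psat1 (0.54), Odc1 (0.53), Ppat (0.51), Prps1 (0.51), Phgdh (0.47), Umps (0.43) and Ctps (0.42) also rose, with adjusted p between 0.0105 and 0.0401. Impdh1 fell by 0.59 on the log2 scale (adjusted p = 0.038), though p53- array 2 lay among the WT arrays. Several members that rose with the Myc+ label in both backgrounds did not pass here, with Cad at 0.01 ± 0.17, Srm at 0.08 ± 0.18, Got1 at 0.09 ± 0.16 and Mthfd1l at 0.11 ± 0.15 (adjusted p = 0.981, 0.778, 0.713 and 0.608). Mtr was at 0.38 ± 0.17 (adjusted p = 0.0908), with all p53- arrays above all WT arrays.

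Several of these calls were lost when 1 array was left out, most of them with any of several arrays, as the following adjusted p-values show. Without WT array 1 they were lost for Ctps (0.0899), Ppat (0.0677), Prps1 (0.0759) and Umps (0.0768), without WT array 2 for Ctps (0.125), Impdh1 (0.0904), Phgdh (0.129), Psat1 (0.0923) and Umps (0.108), and without WT array 3 for Impdh1 (0.0947), Mthfd2l (0.0614) and Phgdh (0.107). Without p53- array 1 they were lost for Ctps (0.0522), Impdh1 (0.177) and Phgdh (0.109), without p53- array 2 for Ctps (0.0823), Phgdh (0.14), Psat1 (0.128) and Umps (0.0553), and without p53- array 3 for Ctps (0.11), Impdh1 (0.191), Odc1 (0.086), Ppat (0.0953), Prps1 (0.128) and Umps (0.111), which left 8 members higher. Leaving out p53- Rb- array 1, which changes only the pooled spread, ended the calls of Ctps (0.0512) and Phgdh (0.0518). Centring the arrays on their medians left 7 members higher and a median change of all genes of 0.02, and quantile normalization left 13 and -0.02. Of all passing genes 66.5% rose as deposited, against 52.5% after centring and 51.6% after quantile normalization. Of 13 proliferation markers 10 rose and 0 fell, with sums of 6699 to 7940 in p53- and 4059 to 4339 in WT arrays. Of 7 leukocyte markers 1 rose and 4 fell, with sums of 557 to 695 in p53- and 2040.5 to 2424 in WT arrays. The part of these markers in the members' changes was not tested.

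The comparison of p53- Rb- with p53- arrays asked what Rb loss added without MYC. Of 34 members 5 rose, 3 fell and 26 did not pass, where 9.36% of all genes rose and 10.4% fell, with medians of 0.19 for members and -0.08 for all genes. Arrays did not overlap in 11 members upward and 4 downward (40% of all genes). Got1 rose by 0.66 ± 0.16 (adjusted p = 0.00582), Psph by 0.56 ± 0.17 (adjusted p = 0.0207), Shmt2 by 0.49 ± 0.15 (adjusted p = 0.0265), Mthfd1l by 0.49 ± 0.15 (adjusted p = 0.0272) and Aprt by 0.45 ± 0.15 (adjusted p = 0.0447). Odc1 fell by 0.72 on the log2 scale (adjusted p = 0.00228), Mthfd2l fell by 0.56 (adjusted p = 0.0295) and Ppat fell by 0.49 (adjusted p = 0.0329), and these same 3 had risen with p53 loss, a comparison that shares the p53- arrays. Odc1 and Got1 passed in all 26 alternatives. Serine genes other than Psph were positive without passing, Phgdh at 0.41 ± 0.17 (adjusted p = 0.0951) and Psat1 at 0.39 ± 0.17 (adjusted p = 0.124), as was Got2 at 0.43 ± 0.17 (adjusted p = 0.0848). Azin1 was at -0.57 ± 0.22 (adjusted p = 0.07), with p53- Rb- array 3 far below the other arrays of its group.

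The count of members that rose with Rb loss moved strongly with single arrays. It was 1 without p53- array 1, 9 without p53- array 2, 2 without p53- array 3, and 2, 3 and 1 without p53- Rb- arrays 1, 2 and 3. The count that fell was 1 without p53- array 1 and 1 without p53- Rb- array 3. The calls lost, with adjusted p-values, were Aprt (0.15), Mthfd1l (0.154), Mthfd2l (0.107), Ppat (0.0607), Psph (0.0972) and Shmt2 (0.0803) without p53- array 1, Mthfd2l (0.0652) without array 2, and Aprt (0.17), Ppat (0.143), Psph (0.0954) and Shmt2 (0.116) without array 3. They were Aprt (0.0718), Mthfd1l (0.0732), Ppat (0.0572) and Shmt2 (0.0729) without p53- Rb- array 1, Aprt (0.0699), Mthfd1l (0.079) and Mthfd2l (0.0523) without array 2, and Aprt (0.176), Mthfd1l (0.0551), Mthfd2l (0.137), Ppat (0.193), Psph (0.137) and Shmt2 (0.144) without array 3. The call of Aprt was also lost without p53- Myc+ array 1 (0.0531) or p53- Rb- Myc+ array 1 (0.057), which change only the pooled spread. With both arrays that stood apart left out, p53- array 2 and p53- Rb- array 3, Got1 and Psph rose and Odc1 fell. That setting was chosen after seeing the data. Of 9 fibroblast markers 5 rose and 0 fell, with sums of 5794 to 7338 in p53- Rb- and 3209.6 to 3461 in p53- arrays, and of 13 proliferation markers 4 rose and 3 fell, with sums of 5995 to 7539 in p53- Rb- and 6699 to 7940 in p53- arrays. Their part in the members' changes was not tested.

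With the Myc+ label present, the Rb- label was compared in p53- Rb- Myc+ against p53- Myc+ arrays. As given above, Rb1 already read lower in the p53- Myc+ arrays, the reference here, than in the arrays labelled p53- Rb-. How far Rb itself differed between the groups compared was not tested, so the counts below describe the labels. By limma 0 of 34 members rose and 0 fell, where 3.29% of all genes rose and 1.4% fell. Only 1 member was under an unadjusted p of 0.05, a threshold at which the share of all genes was not computed. limma-trend and limma with array weights also called 0 members. Member changes had a median of -0.09, against 0.05 for all genes, and ran from -0.40 (Ctps) to 0.29 (Prps2). Arrays did not overlap in 8 members, all downward (20.5% of all genes). Ctps, the member with the smallest p, read 450.4, 405 and 412 in p53- Rb- Myc+ arrays and 581, 580.1 and 531 in p53- Myc+ arrays. The groups did not overlap, at -0.40 ± 0.15 (unadjusted p = 0.0138, adjusted p = 0.162). The 95% intervals of all 34 members lay within 1 log2 unit on either side of 0, from -0.72 for Ctps to 0.72 for Prps2. Of all passing genes 70.2% rose as deposited, against 55.8% after centring the arrays and 59.4% after quantile normalization.

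The difference between both Rb comparisons, with the Myc+ label minus without, was itself tested in the same fit. The low Rb1 readings of the p53- Myc+ arrays limit what it says of Rb loss. By limma 0 members passed in either direction, where 8.78% of all genes passed upward and 4.86% downward. At an unadjusted p under 0.05 there were 8 members, and the share of all genes at that threshold was not computed. limma-trend called 2 downward and array weights 1 upward and 4 downward. Shmt2 came closest, at -0.61 ± 0.21 (adjusted p = 0.0636), and was called without p53- array 2 (0.0438) or p53- Rb- array 2 (0.0399). It was followed by Adsl at -0.56 ± 0.21 (adjusted p = 0.0788) and Aprt at -0.53 ± 0.22 (adjusted p = 0.109). This difference equals that between both Myc+ comparisons, so the members that rose in the p53- background alone, Ctps (-0.46), Shmt2, Mthfd2 (-0.50), Psph (-0.50) and Got2 (-0.48), were not shown to differ between backgrounds, nor was Gmps (0.22), which rose in the p53- Rb- background alone. The median difference was -0.30 for members and 0.13 for all genes, with -0.44 and -0.0032 after centring and -0.24 and -0.01 after quantile normalization. Of all passing genes 64.4% were positive as deposited, against 45.1% after centring and 53.7% after quantile normalization.

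**Figure D4:**
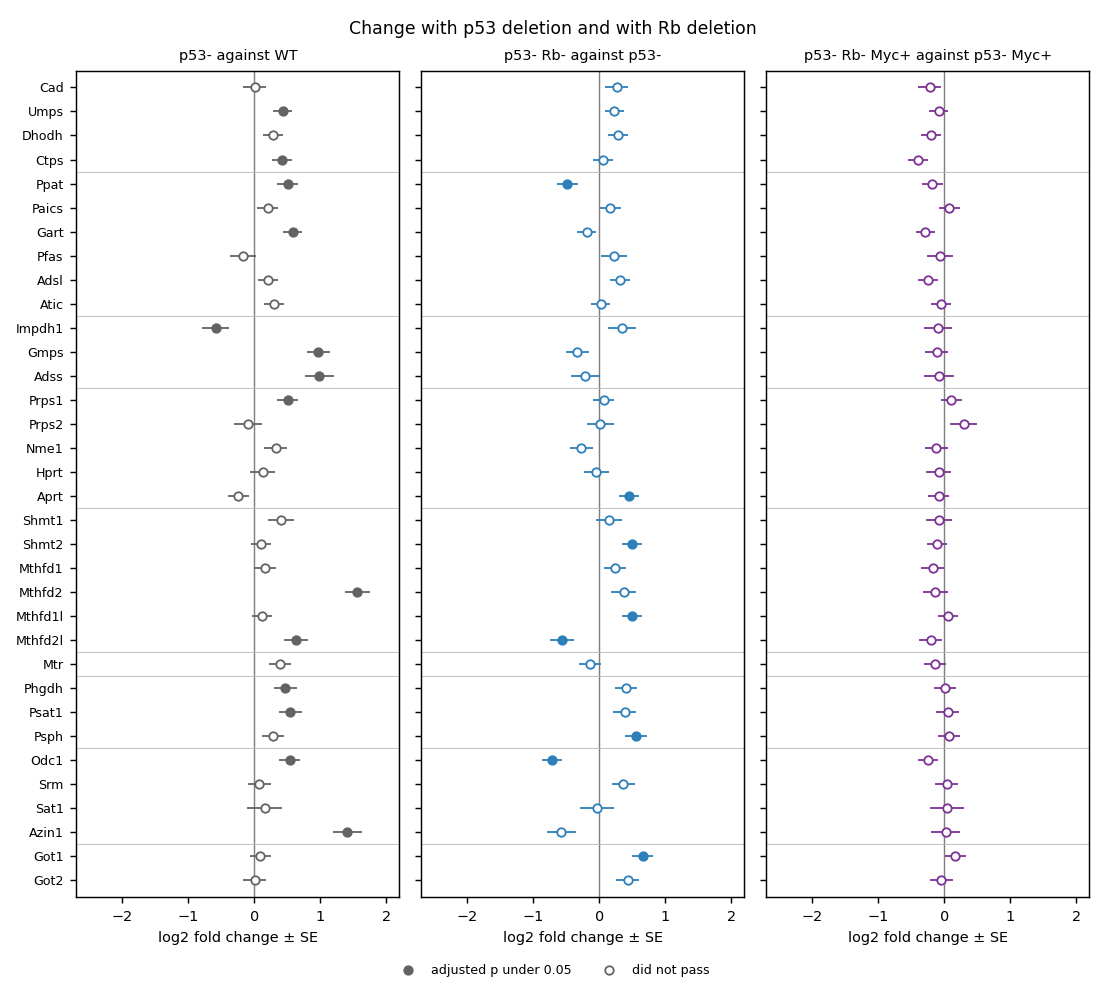
Log2 fold change of each member in p53- against WT (left), p53- Rb- against p53- (middle) and p53- Rb- Myc+ against p53- Myc+ arrays (right), with bars of 1 standard error. Filled points passed at an adjusted p under 0.05, 13 higher and 1 lower on the left, 5 higher and 3 lower in the middle and 0 on the right.

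Other genes of the same routes, from 7 lists with 89 of 103 genes measured, were tested in the same fit. Of these 89, 39 rose and 19 fell in p53- Myc+ against p53- arrays, and 24 rose and 14 fell in p53- Rb- Myc+ against p53- Rb- arrays. Among all genes 13.1% rose and 20.2% fell in the p53- background, and 17.6% rose and 18.7% fell in the p53- Rb- background, so the counts that fell were close to the share over all genes or under it. Among 12 deoxynucleotide genes 8 rose and 1 fell in the p53- background and 6 rose in the p53- Rb- background. Dctd, the dCMP deaminase, rose by 1.78 ± 0.19 and 1.80 ± 0.19 (adjusted p = 9.46e-08 and 8.16e-08), Dtymk, the thymidylate kinase, by 0.94 and 0.56, and Dut, which clears dUTP, by 0.80 and 0.67. Tyms, the thymidylate synthase, rose by 0.72 in the p53- background.

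Breakdown and salvage genes went in both directions, and in the p53- Rb- background their counts were near the shares over all genes (17.6% higher and 18.7% lower). Of 18 genes of purine interconversion and breakdown 7 rose and 6 fell in the p53- background, and 4 rose and 4 fell in the p53- Rb- background. Nt5e, the cell-surface enzyme that makes adenosine from AMP, fell, with changes of -4.54 and -4.13 (adjusted p = 1.97e-15 and 1.11e-14). Ak1, an adenylate kinase, fell too, with changes of -2.33 and -4.32 (adjusted p = 3.1e-09 and 7.66e-14). The highest changes in this purine list were 1.535 in the p53- and 0.81 in the p53- Rb- background. Of 12 genes of pyrimidine salvage and breakdown 2 rose and 5 fell in the p53- background, and 2 rose and 3 fell in the p53- Rb- background. Upp1, uridine phosphorylase, and Cda, cytidine deaminase, both fell, with changes of -2.42 and -1.59 for Upp1 and -1.50 and -1.24 for Cda. The highest changes in this pyrimidine list were 0.79 in the p53- and 1.14 in the p53- Rb- background. Among 14 genes of folate and glycine side reactions 5 rose and 1 fell in the p53- background, and 3 rose and 3 fell in the p53- Rb- background. Gcat, which yields glycine from a product of threonine, rose by 1.83 and 1.01. The lowest changes in this folate and glycine list were -0.68 in the p53- and -1.35 in the p53- Rb- background.

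Of 16 genes of methionine, transsulfuration and methylthioadenosine metabolism 9 rose and 3 fell in the p53- background, and 5 rose and 1 fell in the p53- Rb- background. Cth, which makes cysteine, rose by 2.13 ± 0.19 and 0.67 ± 0.19 (adjusted p = 3.55e-09 and 0.00666), and Mri1 and Adi1, which recycle the methylthioadenosine left by polyamine synthesis, rose by 1.48 and 0.78 in the p53- background. Around the polyamines, 5 of 10 genes rose and 3 fell in the p53- background, and 4 rose and 3 fell in the p53- Rb- background. Smox, which oxidises spermine, fell as Sat1 did, with changes of -3.26 and -2.74 (adjusted p = 4.34e-12 and 8.84e-11). Dhps, which uses spermidine to build hypusine, rose by 0.88 in the p53- background, and Eif5a2, an isoform of the factor that carries hypusine, by 0.90 and 1.42. Among 7 genes of asparagine, glutamine and proline synthesis 3 rose in the p53- background, Aldh18a1 (1.45 ± 0.15), Asns (0.83 ± 0.15) and Oat (0.88 ± 0.18), and 0 passed in the p53- Rb- background.

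**Figure D5:**
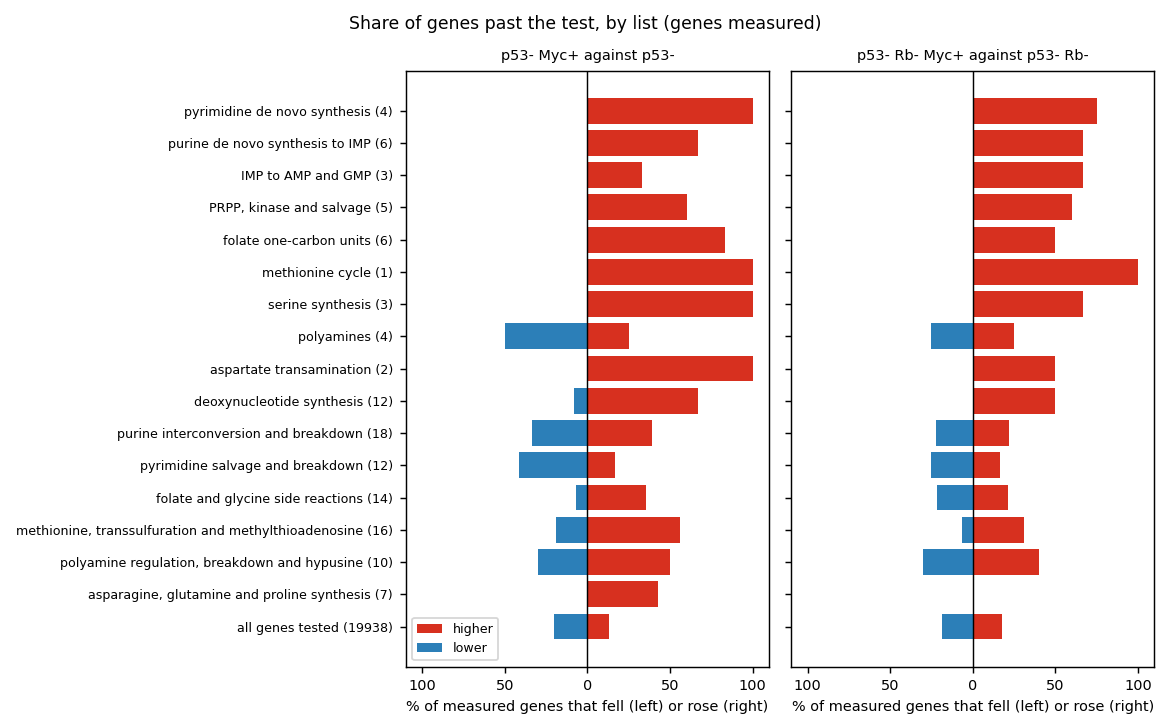
Share of measured genes that rose (right of 0, red) or fell (left of 0, blue) at an adjusted p under 0.05, in % of each list, in p53- Myc+ against p53- and p53- Rb- Myc+ against p53- Rb- arrays, with the number of genes measured in brackets. In the left panel pyrimidine synthesis, serine synthesis, aspartate transamination and the methionine cycle reach 100% risen. The breakdown lists hold genes of both directions, as do all genes at the bottom.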

How the data were processed

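RNA of 15 samples of mouse mammary epithelial cells, 3 per group, was labelled by the WT-Ovation Pico method and put on 1 Affymetrix Mouse Gene array per sample, per the labels' protocols. The authors deposited 1 linear intensity for each probe set and array. The submitters' processing notes name Affymetrix Expression Console 1.1. How probes were summarised, and whether arrays were scaled, is not given in the sources used here. Values ran from 4.11e-05 to 8348.1, and the number of arrays limits the precision.

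Of 35556 probe sets, 21789 named 1 gene and represented 19938 genes. Each gene took the probe set with the highest mean over all arrays, and 999 genes had more than 1. Names were checked against a gene table of assembly GRCm38.p6. Values were analysed as log2 of the deposited intensity plus 16, by limma 3.58.1 under R 4.3.3. A single linear model held the 5 group means (10 residual degrees of freedom), and eBayes moderated its variances with 11.78 prior degrees of freedom and a prior SD of 0.2273. Tests were 2-sided and p-values adjusted by Benjamini-Hochberg over all genes. The 5 comparisons and the difference of both Rb comparisons came from this fit, which was tested on simulated data. A total of 27 alternatives changed the constant, the scaling, the filter, the probe set rule, the arrays fitted, the variance model or the replicate block. Values of members are given by array for the member of each pathway with the smallest p over the 4 Rb and Myc+ comparisons, for that with the smallest p in p53- against WT, and for paralog pairs. Of the further lists, some of the 4 genes with the smallest p per comparison are named, and the others are left out. Members given by array beyond these, Ppat, Paics, Odc1 and Sat1, were chosen after their values were seen, as were Cad, Ppat, Paics, Atic and Nme1 for the promoter windows. The members and all gene lists were chosen with earlier results of these data known.

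In p53- Rb- Myc+ against p53- Rb- arrays, the deviations of same-number arrays were positively correlated (r = 0.036, 0.056 and 0.218), but only number 3 matched best both ways. Only in p53- Rb- Myc+ against p53- Myc+ did every array deviate most like the same-number array of the other group (r = 0.102, 0.192 and 0.379). The labels give no such pairing, which rests on the measured values. All values printed for that comparison come from the model without a block, and the fit with the replicate block, an alternative, changed no member's call there.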

Additional observations from a re-analysis of the deposited data

Results flagged for a closer look

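The change with Rb loss differed between arrays with and without the Myc+ label, by a test of the difference itself, in 17 of 89 further genes of these routes and in 0 of 34 members. The difference was positive in 6 and negative in 11, where 8.78% of all genes passed upward and 4.86% downward. Rb1 read low in p53- Myc+ arrays too, so the differences describe the labels. Groups of 3 arrays were too small for a test of outlying samples. Values are log2 fold changes, and each difference is the change with the Myc+ label minus that without.

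Among purine genes, Ak1, an adenylate kinase, changed by 0.03 with and 2.02 without the Myc+ label, a difference of -1.99 ± 0.29 (adjusted p = 6.06e-05). Ak1 averaged only 7.52 ± 5.69 in p53- Rb- Myc+ and 6.78 ± 4.02 in p53- Myc+ arrays (SD, n = 3 each), under the constant of 16, so a change with Rb loss could hardly be seen there and the low level alone can set this difference. Ada, adenosine deaminase, changed by -0.14 with and 1.06 without the Myc+ label, a difference of -1.21 ± 0.25 (adjusted p = 0.00247). Ampd3, an AMP deaminase, changed by 1.80 with and 0.45 without the Myc+ label, a difference of 1.35 ± 0.26 (adjusted p = 0.00111). Gda, guanine deaminase, changed by 1.62 with and 0.69 without the Myc+ label, a difference of 0.93 ± 0.22 (adjusted p = 0.00755), and Nme4, a mitochondrial nucleoside diphosphate kinase, changed by -0.56 with and 0.50 without the Myc+ label, a difference of -1.05 ± 0.25 (adjusted p = 0.00738). Dguok, the mitochondrial deoxyguanosine kinase, changed by -0.16 with and 0.63 without the Myc+ label, a difference of -0.79 ± 0.22 (adjusted p = 0.0172).

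Among pyrimidine genes, Uprt changed by 0.67 with and -1.11 without the Myc+ label, a difference of 1.78 ± 0.26 (adjusted p = 9.73e-05), and Upp1, uridine phosphorylase, changed by 0.34 with and -0.49 without the Myc+ label, a difference of 0.83 ± 0.21 (adjusted p = 0.0103). Upp1 was also dim with the Myc+ label, at 22.7 ± 3.95 in p53- Rb- Myc+ and 14.5 ± 1.25 in p53- Myc+ arrays. In the folate and glycine list, Aldh1l2, a mitochondrial formyltetrahydrofolate dehydrogenase, changed by -0.63 with and 1.18 without the Myc+ label, a difference of -1.81 ± 0.26 (adjusted p = 7.24e-05). Dld, a subunit of the glycine cleavage system and of dehydrogenase complexes, changed by 0.14 with and -0.85 without the Myc+ label, a difference of 0.99 ± 0.27 (adjusted p = 0.0192), and Gcat changed by -0.32 with and 0.50 without the Myc+ label, a difference of -0.82 ± 0.23 (adjusted p = 0.018).

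In the methionine list, Nnmt, which methylates nicotinamide, changed by -0.44 with and 1.18 without the Myc+ label, a difference of -1.62 ± 0.26 (adjusted p = 0.000209), and Cth changed by -1.24 with and 0.22 without the Myc+ label, a difference of -1.46 ± 0.26 (adjusted p = 0.000733). Around the polyamines, Oaz3, an antizyme, changed by 0.56 with and -0.63 without the Myc+ label, a difference of 1.19 ± 0.28 (adjusted p = 0.00677), with group means between 5.61 and 26.0 that lie near that constant. Dohh, a hypusine hydroxylase, changed by -0.02 with and 0.82 without the Myc+ label, a difference of -0.84 ± 0.24 (adjusted p = 0.0238). Asns, asparagine synthetase, changed by -0.29 with and 0.53 without the Myc+ label, a difference of -0.82 ± 0.21 (adjusted p = 0.0112), and Aldh18a1, which opens proline synthesis, changed by -0.69 with and 0.81 without the Myc+ label, a difference of -1.50 ± 0.21 (adjusted p = 5.07e-05).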

How the results depend on the processing

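Over the 34 members in all comparisons, 5152 of 5338 recomputed results kept their side of the threshold, 101 stopped passing and 85 began to pass. Of results that passed in either fit, 0 reversed in direction. A change of sign where neither fit passed was counted as kept. The further genes and the counts of members are not part of these numbers. In comparisons of 2 groups, most fits without 1 array dropped an array outside both, which changes only the pooled spread. Many results could therefore hardly change, and the total kept is no measure of stability by itself. In p53- Myc+ against p53- arrays 24 of 26 called members passed in every alternative, and in p53- Rb- Myc+ against p53- Rb- arrays 19 of 21 did, whereas 5 of 14 did for p53 loss and 2 of 8 for Rb loss. Leaving out 1 array gave 8 to 13 members higher and 0 to 1 lower for p53- against WT, 1 to 9 and 1 to 3 for p53- Rb- against p53-, 24 to 25 and 1 to 2 for p53- Myc+ against p53-, 0 and 0 for p53- Rb- Myc+ against p53- Myc+, 18 to 20 and 1 for p53- Rb- Myc+ against p53- Rb-, and 0 and 0 to 1 for the difference of the Rb comparisons. For p53- against WT, 7 rose with arrays centred on their medians and 8 with only the arrays compared, and 0 fell with 1 added to the intensity or with only the arrays compared. For p53- Rb- against p53-, 8 rose with 64 added, 3 after quantile normalization, 11 with array weights, and 2 rose and 1 fell without p53- replicate 2 and p53- Rb- replicate 3. For p53- Myc+ against p53-, 1 member fell with 1 added, with centring, with quantile normalization and with only the arrays compared. For p53- Rb- Myc+ against p53- Myc+, 1 fell with 64 added. For the difference, 1 member was higher with 64 added and with array weights, while 4 were lower with 64 added, 2 with centring, 2 among genes at or above the median level, 2 with limma-trend and 4 with array weights. The cause of these shifts was not tested. The replicate block over all 15 arrays changed no member's call, leaving 13, 5, 24, 0 and 20 members higher in the 5 comparisons, and with the pairing within the 6 arrays compared, p53- Rb- Myc+ against p53- Myc+ again had 0 higher and 0 lower. In the other comparisons not every array deviated most like its same-number array.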

Other observations

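The further genes of these routes were also compared with p53 and Rb loss. In p53- against WT arrays 13 of 89 rose and 15 fell, where 19.3% of all genes rose and 9.72% fell. A smaller share thus rose, and a larger share fell, than over all genes. Purine interconversion and breakdown had 3 genes that rose and 8 that fell of 18, with Ak1 at -1.78 ± 0.20, Nme3, a nucleoside diphosphate kinase, at -1.29 ± 0.19, Xdh, which forms urate, at -1.12 ± 0.17 and Ada at -0.83 ± 0.18 (adjusted p = 2.62e-06, 4.05e-05, 5.84e-05 and 0.0015). Rrm2b, a ribonucleotide reductase subunit known as p53-induced, rose by 0.88 ± 0.16 (adjusted p = 0.000323). Uprt rose by 1.20 ± 0.19 and Cda fell by 0.95 on the log2 scale (adjusted p = 7.66e-05 and 0.000511).

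In p53- Rb- against p53- arrays 22 of 89 rose and 5 fell, where 9.36% of all genes rose and 10.4% fell. Of 7 genes of asparagine, glutamine and proline synthesis 5 rose, among them Aldh18a1 by 0.81 ± 0.15, Gpt2 by 0.78 ± 0.22, Asns by 0.53 ± 0.15 and Oat by 0.61 ± 0.18 (adjusted p = 0.00062, 0.0141, 0.0149 and 0.018). Of 18 purine interconversion and breakdown genes 6 rose and 0 fell, with Ak1 at 2.02 ± 0.20 and Ada at 1.06 ± 0.18 (adjusted p = 8.37e-07 and 0.000231). Aldh1l2, which oxidises formyl folate in mitochondria, rose by 1.18 ± 0.19, and Uprt fell by 1.11 (adjusted p = 0.000128 and 0.000252). The p53 and Rb comparisons share the p53- arrays. In p53- Rb- Myc+ against p53- Myc+ arrays 6 rose and 2 fell of 89, where 3.29% of all genes rose and 1.4% fell, with Ampd3 at 1.80 ± 0.18, Gda at 1.62 ± 0.16 and Cth at -1.24 ± 0.19 (adjusted p = 3.29e-07, 2.23e-07 and 0.000103).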
